A study of Mus musculus with 93 samples.

Results

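Blood leukocyte transcripts of tumor-bearing and tumor-free female mice were profiled in 2 cohorts, and the comparison here takes 13 of the 65 tumor arrays against all 28 control arrays, out of 93 arrays in the series. The 13 arrays carry the numbers 1 to 5 in the training cohort and 1 to 8 in the validation cohort, and are called early-numbered. The word refers to the number in the label and not to time, age or tumor stage. The same 13 arrays were those on which the control probe set for dap, a bacterial transcript that laboratories can add to RNA before labelling, lay below 5 on the log2 scale. It ran from 2.11 to 3.83 on the early-numbered arrays, from 6.57 to 10.8 on the other 52 tumor arrays (late-numbered) and from 1.74 to 3.55 on the control arrays. The early-numbered array nearest to the limit was validation 2 at 3.83, and the nearest array outside it stood at 6.57. The arrays were thus chosen by these control values, which are given as a description, with no test.

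The early-numbered and late-numbered arrays are from MMTV/c-MYC females with advanced mammary tumors, and the control arrays from wild-type FVB/NJ females without one, matched for age and parity. The transgene is c-MYC, normal or in a mutated form, under a hormone-responsive mammary tumor virus promoter in the FVB/NJ strain, and per the study it was carried by several lines of mice that were bred continuously. The labels do not say which form or line stands behind an array. Training holds 5 early-numbered and 14 control arrays, and validation 8 early-numbered and 14 control arrays. Blood came from the cheek, red cells were lysed, and the RNA of total white cells was amplified and hybridized to a mouse genome array. Leukocyte pellets were extracted at once or after cold storage, by hand or on an instrument, and the sources used here do not say which array had which. Each array is 1 blood sample, the labels name no animals, and the p-values therefore rest on the scatter among arrays only.

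Peripheral blood holds lymphocytes, which recognise antigen and make antibody, and myeloid cells such as neutrophils and monocytes, which take up microbes and present antigen. Residual reticulocytes and platelets carry RNA as well. Mammary tumors in mice are known to release growth factors that change how many cells of each type the bone marrow sends out, and MYC is a transcription factor that drives ribosome production and cell division in the cells that carry it. In an array of mixed blood cells, fewer cells of a type and less RNA per cell cannot be told apart. The study also counted leukocyte types in blood drawn after euthanasia, and reported similar profiles in tumor-bearing mice and matched controls. Those counts cannot be linked to single arrays here.

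Several technical values differed between the groups without overlap or nearly so, and they bear on every result below. The actin control, whose 5′ minus 3′ difference falls as RNA or its copies shorten, lay between −2 and −1.2 on the early-numbered arrays and between −0.9 and −0.5 on the control arrays, so 13 of 13 were below the lowest control. The 18S ribosomal RNA control was 8.05 to 10.8 on the early-numbered arrays, 12 of them above the highest control, against 6.74 to 8.48 on the control arrays. Because these values nearly mark the groups (the correlation of the actin difference with group was −0.92 over the 41 arrays), a fit that adds them has little left to separate, and tumor status and RNA handling cannot be told apart. Results are therefore also given with the actin difference, with the 18S level, or with 3 principal components of the control probe sets as covariates. The 5′ minus 3′ difference of the Gapdh control overlapped far more than that of actin. It was −2 to −1 on early-numbered and −1.6 to −1 on control arrays, with 3 of 13 below the lowest control. The pan-leukocyte gene Ptprc (CD45) was 12.3 to 12.8 (median 12.6) on early-numbered and 11.9 to 12.2 (median 12.1) on control arrays, and its other probe set was called in the opposite direction. Xist, from the inactive X chromosome, was 11 to 12.1 (median 11.5) on early-numbered and 11.4 to 12 (median 11.8) on control arrays. The Y-linked Eif2s3y, Kdm5d and Uty reached 5.06, 4.39 and 4.32 on validation 2, where the next highest early-numbered validation arrays stood at 3.13, 3.1 and 2.73.

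Limma called 27589 of 45037 probe sets (61.3%) different between early-numbered tumor and control arrays, 16417 higher (36.5%) and 11172 lower (24.8%), at an adjusted p under 0.05. The balance depended on the scaling: quantile normalization over these arrays gave 10478 higher and 9811 lower (51.6% of calls higher, against 59.5%), and centring each array on its median gave 19187 and 9736 (66.3%). By gene, 6124 of 18193 rose (33.7%) and 5272 fell (29%), with a median difference of 0.08 on the log2 scale. Differences below are on that scale, as early-numbered minus control ± SE. The direction followed the level. Among the 10579 genes above the median level of all probe sets (4.749), 1891 were higher (17.9%) and 4969 lower (47%), with a median difference of −0.23. Among the 7614 genes at or below it, 4233 were higher (55.6%) and 303 lower (3.98%), with a median of 0.29. Most lists below lie almost wholly above the median level, where the shares to set beside their counts are 17.9% higher and 47% lower. Large differences leaned the other way from the plain count, with 571 probe sets higher and 1862 lower by more than 1 log2 unit. Of the genes above the median level, those that fell by more than 1 (875 genes) spanned a median of 13.3 kb of genome and those that rose by more than 1 (124 genes) 30.7 kb, against 22.9 kb for all. With the actin covariate 7124 probe sets were called (15.8%), 7.09% higher and 8.73% lower. With the 18S level 9803 were called (21.8%), 12.3% higher and 9.47% lower. With the control components 8340 were called (18.5%), 11.4% higher and 7.15% lower. By gene the shares higher and lower were 7% and 11.7% with the actin covariate, 11.9% and 11.4% with the 18S level and 11.1% and 8.53% with the control components. Called in the same direction in all 4 fits were 219 genes that were higher (1.2%) and 435 that were lower (2.39%). Among genes named below, Ptprc and Tgfbr1 (higher) and Ighm, Cd79a, Cd79b, Lat, Lyz2, Nrgn, Cd74, H2-Aa, H2-Eb1, H2-Oa, Mrpl2, Mrpl28, Nop10, Ppan, Aldoa, Taldo1, Sec61a1, Nfkbie, Gnb2 and Ppp4c (lower) belong to these, as do those said to be called in all 4 fits. The other genes lost their call in at least 1 covariate fit or were not called.

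**Figure D1:**
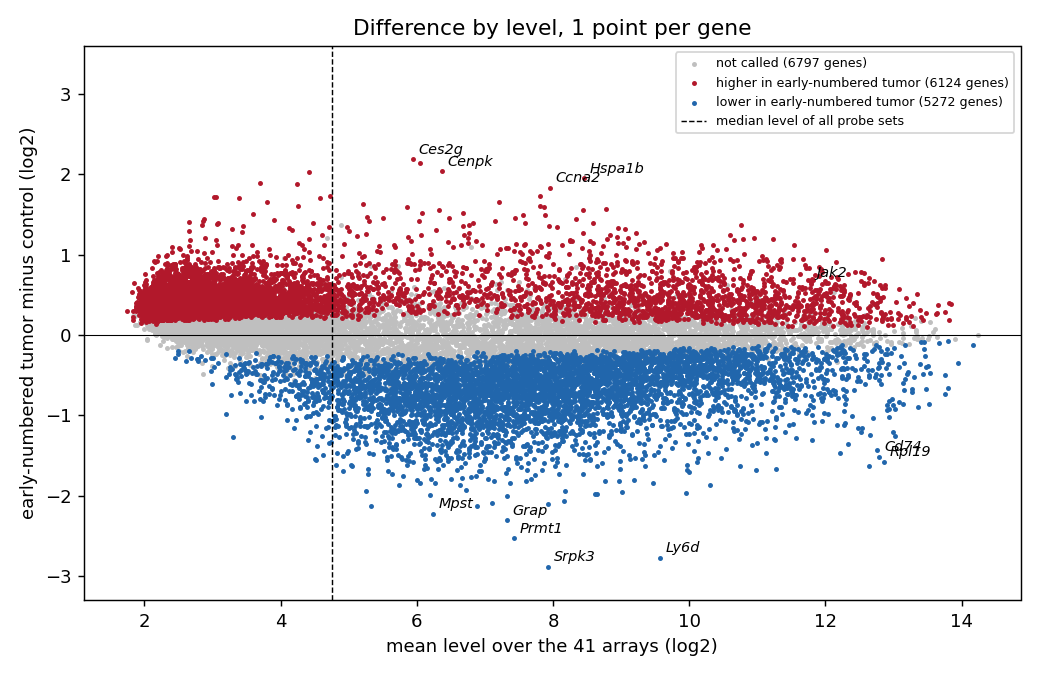
Early-numbered tumor minus control in log2 units against the mean log2 level over the 41 arrays, 1 point per gene, with genes called higher in red, called lower in blue and others in grey. Left of the dashed line at 4.749 most called genes lie above 0 (4233 higher, 303 lower), and right of it most lie below (1891 higher, 4969 lower).

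Each cohort was also fitted alone. Training arrays alone gave 21480 calls and validation arrays alone 17989, and 12780 probe sets passed in both with 1 sign, against 18 with opposite signs. The interaction of tumor status with cohort was called for 6 probe sets (0.0133%), while 4985 had an unadjusted p under 0.05. Of these 6, all had a mean level below the median of all probe sets, and the largest difference between cohorts was that of Zfp606, a zinc finger gene, at 0.71 in training and −0.70 in validation. The count rested on single arrays: without training 1 it was 437, and it was 26 without training 3, 70 without training 5, 3 without validation 1, 17 without validation 2 and 47 without validation 3.

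The deepest falls were in genes of several unrelated kinds. Srpk3, a kinase of splicing factors, had the largest, with 3.28 to 7.47 (median 6.63) on early-numbered and 7.5 to 9.94 (median 8.9) on control arrays. It fell by 2.88 ± 0.295, and 1 of its 3 other probe sets was called in the opposite direction. Ly6d, a surface protein of B-lineage cells, was 6.43 to 8.37 (median 7.83) on early-numbered and 9.29 to 11.2 (median 10.55) on control arrays, a difference of −2.77 ± 0.171 with an adjusted p of 1.36e-17. Prmt1, the main asymmetric arginine methyltransferase, was 3.87 to 6.55 (median 5.91) on early-numbered and 7.48 to 8.81 (median 8.3) on control arrays. All 13 early-numbered arrays lay below the lowest control for these 3 genes. The same held for Grap, an adaptor protein of lymphocyte receptor signalling, which fell by 2.31 ± 0.153, for Mpst, a sulfur transferase (−2.22 ± 0.138), for Stk25, a kinase of the Golgi and of cell polarity (−2.09 ± 0.119), for Nprl2, a subunit of the amino acid sensor GATOR1 (−2.0 ± 0.135), and for Ly6g6c of the Ly6 family (−2.10 ± 0.18). Over all genes 1.31% had 13 of 13 early-numbered arrays below the lowest control. Mapk11 and Mapk12, both p38-type kinases, fell, with differences of −2.13 ± 0.196 and −1.99 ± 0.215, Dhodh of pyrimidine synthesis at −2.12 ± 0.194, and the serine protease gene Klk8 at −2.07 ± 0.2. Srpk3, Ly6d, Prmt1, Grap, Mpst, Mapk11, Stk25 and Nprl2 were called lower in all 4 fits. Dhodh (adjusted p = 0.0839), Klk8 (0.373) and Mapk12 (0.1) lost their calls with the control components, and Ly6g6c (0.095) with the actin covariate.

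The largest rises were led by Ces2g, a carboxylesterase, at 6.39 to 8.23 (median 7.59) on early-numbered and 3.13 to 7.63 (median 5.12) on control arrays. It rose by 2.19 ± 0.288, and 6 arrays were above the highest control. Vasn, which encodes a cell surface protein that binds TGF-beta, had no overlap: its levels were 6.44 to 8.77 (median 7.92) on early-numbered and 4.5 to 6.38 (median 5.34) on control arrays. Over all genes 0.357% had 13 of 13 early-numbered arrays above the highest control. Cenpk, a component of the inner kinetochore, was 6.04 to 8.57 (median 7.91) on early-numbered and 4.38 to 6.95 (median 5.7) on control arrays, with an adjusted p of 1.05e-10 and 12 arrays above every control. The cell cycle gene Ccna2 (cyclin A2) rose by 1.83 ± 0.284, with differences of 2.72 in training and 1.20 in validation. Hemgn, a nuclear factor of red cell precursors, rose by 1.59 ± 0.305. Cd180, a Toll-like receptor homolog of B cells, rose by 1.66 ± 0.21, the opposite way to most B-cell genes below. Others were Rnf217, a ubiquitin ligase gene (1.73 ± 0.18), Gas2l3, which links actin and microtubules (1.64 ± 0.186), Entpd3, an ectonucleotidase gene (1.61 ± 0.292), Osbpl1a, which binds sterols (1.60 ± 0.256), and Hacd1, of fatty acid elongation (1.57 ± 0.173). On validation 6 Cd180 (5.72), Osbpl1a (4.13), Hemgn (5.99) and Hacd1 (7.94) were the lowest of the early-numbered arrays, far from the rest. Cenpk, Rnf217 and Gas2l3 were called higher in all 4 fits. The other 9 lost their calls in at least 1 fit. Ces2g was 1.03 with the control components (adjusted p = 0.0635) and 0.71 with the 18S level (0.235). Ccna2 was 0.08 (0.894) and 0.09 (0.897), Osbpl1a 0.35 (0.613) and 0.27 (0.662), and Hacd1 0.70 (0.188) and 0.66 (0.052) in the same fits. Cd180 was 1.22 with the control components (0.0698). With the actin covariate Vasn was 0.88 (adjusted p = 0.148), Entpd3 0.31 (0.804) and Hspa1b, described below, 0.95 (0.196). Hemgn was −0.37 with the control components (adjusted p = 0.599) and −0.39 with the 18S level (0.515), opposite to the fit without them.

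The class II antigen presentation genes fell as a body: all 10 genes read were called lower, with a median difference of −1.19. Of all genes 29% were lower, and of those above the median level, where all 10 lie, 47%. Class II molecules are made by B cells, dendritic cells and monocytes, and hold peptides for helper T cells. Cd74, the invariant chain that guards the peptide groove, was 10.7 to 12.5 (median 11.9) on early-numbered and 12.8 to 13.7 (median 13.3) on control arrays, a difference of −1.52 ± 0.114. H2-Aa, the alpha chain of H2-A, was 10.3 to 11.8 (median 11.2) on early-numbered and 12.1 to 13.1 (median 12.7) on control arrays, with an adjusted p of 2.19e-15. For both, 13 of 13 early-numbered arrays lay below the lowest control, and of the 3 other H2-Aa probe sets 1 was called lower and 1 higher. H2-Eb1, the beta chain of H2-E, had 4.91 to 8.2 (median 7.14) on early-numbered and 7.48 to 9.38 (median 8.88) on control arrays. H2-DMb2, a subunit of the peptide exchanger DM, had 6.7 to 8.37 (median 7.79) on early-numbered and 8.36 to 10.5 (median 9.78) on control arrays, with 12 arrays below every control. H2-Oa, a subunit of the DM inhibitor DO, was lower at −1.48 ± 0.146, and its partner H2-Ob at −0.92 ± 0.168. H2-Ab1 was lower at −0.84 ± 0.121, H2-DMa at −0.73 ± 0.114 and Ciita, the transactivator that switches these genes on, at −0.81 ± 0.192. The smallest fall was that of Ctss, the protease that trims the invariant chain, at −0.20 ± 0.0748. The median was −0.99 with the actin covariate, −1.11 with the 18S level and −1.14 with the control components, and 5, 9 and 7 of the 10 genes were called lower in these fits, with 4 called in all. The per-array mean of the 10 genes was 8.49 to 9.92 on the early-numbered arrays, lowest on validation 6, and 9.69 to 10.8 on the control arrays. H2-DMb1 could not be read from a probe set with a single symbol.

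**Figure D2:**
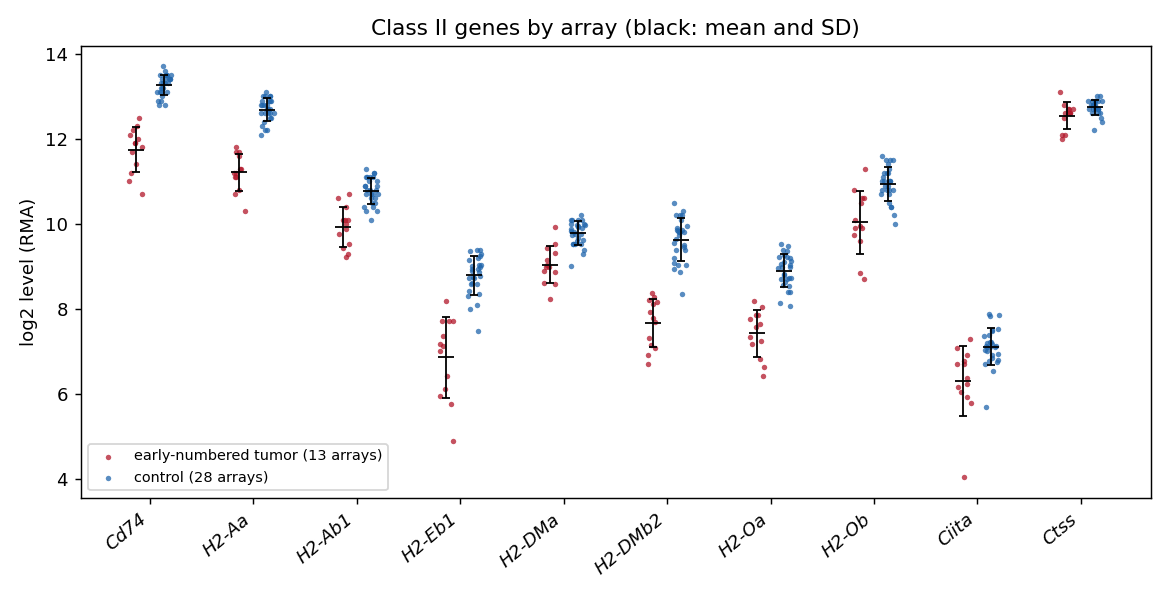
Log2 level of the 10 class II genes on each of the 13 early-numbered tumor arrays (red, left) and 28 control arrays (blue, right), with mean and SD in black. For Cd74 and H2-Aa the groups do not overlap, and for Ctss most points lie within the control range.

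Class II promoters share a set of boxes near the start, of which the Y box holds an inverted CCAAT sequence bound by the factor NF-Y. The bases before the start are shown for 3 genes of the set that lie together on chromosome 17, so that the shared letters can be seen. They are RefSeq sequences of build GRCm38.p6, 150 bases ending at the base before the annotated start, 5′ to 3′ on the gene's strand, with GATTGG on either strand in capitals (H2-Aa at chr17:34287824-34287973, minus strand, H2-Eb1 at chr17:34305717-34305866, plus strand, and H2-DMb2 at chr17:34145099-34145248, plus strand).
H2-Aa: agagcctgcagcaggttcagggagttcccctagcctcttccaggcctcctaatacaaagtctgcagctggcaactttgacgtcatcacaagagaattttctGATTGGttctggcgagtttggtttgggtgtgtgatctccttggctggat
H2-Eb1: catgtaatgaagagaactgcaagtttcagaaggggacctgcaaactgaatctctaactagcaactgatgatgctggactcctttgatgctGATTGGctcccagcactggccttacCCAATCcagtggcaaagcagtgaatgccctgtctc
H2-DMb2: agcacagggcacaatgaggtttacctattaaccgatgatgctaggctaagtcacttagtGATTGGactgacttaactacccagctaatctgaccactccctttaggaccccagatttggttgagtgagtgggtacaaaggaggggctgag
The motif began 49 bases before the start of H2-Aa, 60 before that of H2-Eb1 (and on the other strand at 35) and 91 before that of H2-DMb2. It lay in the 150-base window of 5 of the 7 class II genes with a promoter entry, H2-Oa and H2-Ob being the others, and in 10.94% of all 32851 windows of that length. A match describes the letters only.

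Class I presentation moved less, with 10 of 13 genes called lower, 0 higher and a median of −0.38. Its deepest falls were in the immunoproteasome, whose subunits cut proteins into peptides for class I. Psmb10 was 7.15 to 8.82 (median 8.27) on early-numbered and 9.5 to 10.5 (median 10.0) on control arrays, a difference of −1.84 ± 0.0993, and Psmb9 fell by 1.36 ± 0.103. H2-D1, a class I heavy chain, fell by 0.60 ± 0.0485, with 12.1 to 13 (median 12.7) on early-numbered and 13.2 to 13.4 (median 13.3) on control arrays. No early-numbered array overlapped the controls for these 3 genes, and all 3 were called lower in all 4 fits. H2-D1 belongs to a family of near-identical genes, and of its 8 other probe sets 4 were called lower and 2 higher.

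B-cell genes fell in 15 of 19 and rose in 1, with a median of −1.15. Cd79a and Cd79b carry the signal of the B-cell receptor. Cd79b was 8.76 to 10.9 (median 10.3) on early-numbered and 10.8 to 12.4 (median 11.85) on control arrays, and Cd79a fell by 1.68 ± 0.17. Ighm, the IgM heavy chain, fell by 1.53 ± 0.146, and of its 10 other probe sets 6 were called lower and 3 higher. The per-array mean of the list was 7.34 to 9.42 on early-numbered arrays, lowest on training 5, and 8.49 to 10.2 on control arrays. It held its size under the covariates, with medians of −0.88 (actin), −1.04 (18S) and −1.11 (control components) and 6, 12 and 8 genes called lower. Plasma cell genes fell in 8 of 14 and rose in 0. Of the 14, 13 lie above the median level, where 47% of all genes were lower, so the count of falls is near that share. The deepest was Mzb1, a chaperone of antibody assembly in B and plasma cells, at −1.36 ± 0.147. Fkbp11 of the secretory pathway was lower at −0.90 ± 0.16 and Creld2 at −0.66 ± 0.12. Only 1, 2 and 2 of the 14 were called lower with the actin, 18S and control component covariates, and for Fkbp11 1 of 2 other probe sets was called higher.

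T-cell genes fell in 19 of 22 and rose in 0, with a median of −0.94. Cd2, an adhesion receptor of T and NK cells, was 9.93 to 11 (median 10.6) on early-numbered and 10.7 to 12.2 (median 11.6) on control arrays. Cd27, a costimulatory receptor, was lower at −1.55 ± 0.182, and Lat, which assembles signals below the T-cell receptor, at −0.98 ± 0.119. The mean of the list ran from 8.14 on validation 2 to 9.43 on validation 5, against 8.77 to 10.3 on the control arrays, and 8 of 13 arrays were below the lowest control. The fall depended on the covariate: 9 genes stayed called with the actin difference (median −0.85), 3 with the 18S level (−0.24) and 1 with the control components, where the median was 0.11. NK and cytotoxic genes fell in 9 of 17 and rose in 1, with a median of −0.49. All 17 lie above the median level, where 47% of all genes were lower, so the count is near that share. Ctsw, a protease of cytotoxic cells, was lower at −1.87 ± 0.183, perforin (Prf1) at −0.52 ± 0.0987 and the protease inhibitor Cst7 at −0.68 ± 0.146. With the actin, 18S and control component covariates 1, 2 and 0 of the 17 were called lower.

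Myeloid lists were mixed. Neutrophil genes rose in 2 and fell in 4 of 19, with a median of −0.10. The list turned with the covariate: 0 were higher and 2 lower with the actin difference (median −0.66), 5 and 0 with the 18S level (0.41) and 4 and 0 with the control components (0.82). The chemokine receptor Cxcr2 was 10.5 to 12.3 (median 11.6) on early-numbered and 10.0 to 11.2 (median 10.65) on control arrays, a rise of 0.73 ± 0.128, and Trem1, which amplifies inflammatory signals, rose by 0.75 ± 0.186. Lcn2, an iron-trapping granule protein, was 9.29 to 13.3 (median 11.1) on early-numbered and 10.7 to 13.4 (median 12.2) on control arrays. It fell by 1.08 ± 0.271 and was lower with the actin covariate too (−2.09), but 0.65 with the control components (adjusted p = 0.454). The early-numbered arrays lay on both sides of the controls for the neutrophil list: its mean was 8.63 on training 1 and 8.72 on validation 7, 10.9 on training 5 and 11.4 on validation 6, against 8.74 to 10.7 on the control arrays. Without training 5 and validation 6, 2 genes of this list were called higher and 6 lower. Among monocyte and macrophage genes 3 rose and 6 fell of 18, and 0 and 2 with the actin covariate, 2 and 1 with the 18S level and 2 and 1 with the control components. The inflammatory lectin receptor Clec4n rose by 0.89 ± 0.209, F13a1, a clotting factor subunit of monocytes and platelets, by 0.30 ± 0.073, and lysozyme (Lyz2) fell by 0.49 ± 0.0516. Dendritic cell genes split evenly, 4 higher and 4 lower of 11. The smallest p-values were those of fallers, Cd209a at −1.20 ± 0.205, Bst2 at −0.92 ± 0.158 and the protease inhibitor Cst3 at −0.35 ± 0.063. None of these was called in any covariate fit. The list had 0 higher and 0 lower with the actin covariate, 0 and 1 with the 18S level and 1 and 0 with the control components. In the list of basophils, mast cells and eosinophils 1 rose and 5 fell of 11. The riser was the eosinophil receptor Siglecf, at 7.65 to 10.2 (median 9.08) on early-numbered and 6.48 to 8.78 (median 7.79) on control arrays, while the basophil protease Mcpt8 was lower at −1.36 ± 0.276 and the IgE receptor chain Fcer1a at −1.23 ± 0.271. With the control components these 2 stood at 0.91 (adjusted p = 0.101) and 0.76 (0.331).

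Erythroid genes rose in 9 of 15 and fell in 0, with a median of 0.54. The transferrin receptor Tfrc, which brings iron into red cell precursors, rose by 0.93 ± 0.211, Epb42 of the red cell membrane by 1.42 ± 0.361 and the transcription factor Gata1 by 0.43 ± 0.122. The median was 1.15 in training, with 12 genes called higher, and 0.22 in validation, with 1. Validation 6 had the lowest mean at 7.21, where the other early-numbered arrays lay between 8.96 and 10.2 and the controls between 7.38 and 10.2. The direction turned under some covariates: the median was 0.99 with the actin difference, −0.92 with the 18S level and −1.14 with the control components, and each of the last-named fits called 7 genes lower. Platelet genes rose in 4 and fell in 7 of 18 with a median of −0.09, and 3 rose and 1 fell with the actin covariate (0.17), 1 and 12 with the 18S level (−0.34) and 1 and 8 with the control components (−0.41). Clec1b, the podoplanin receptor, was lower at −0.39 ± 0.0434, von Willebrand factor (Vwf) at −0.70 ± 0.0896 and Nrgn at −1.15 ± 0.137. Of the mammary and milk genes 10 rose and 1 fell of 19, but only 3 of the 19 lay above the median level of all probe sets, and below that level 55.6% of genes were higher. The rises numbered 2 with the actin covariate, 3 with the 18S level and 0 with the control components, where 1 gene was lower. The casein gene Csn1s2a was 2.92 to 6.41 (median 4.47) on early-numbered and 2.46 to 3.62 (median 3.04) on control arrays, with all 4 of its other probe sets called higher, Csn3 rose by 0.49 ± 0.0858 and the junction gene Cldn4 by 0.62 ± 0.109. Csn1s2a was 0.76 with the control components (adjusted p = 0.119).

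**Figure D3:**
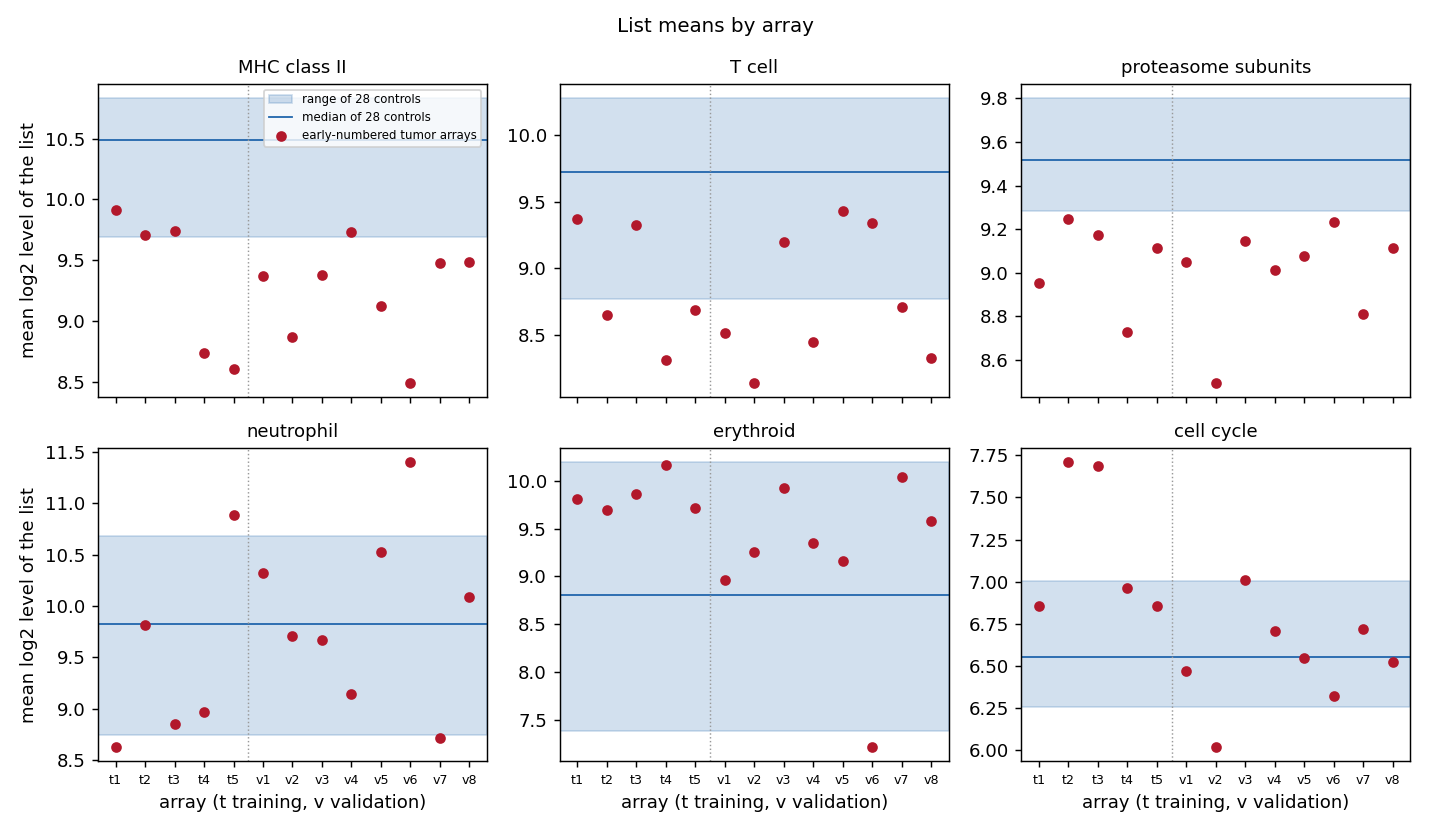
Mean log2 level of 6 lists on each early-numbered tumor array (red points, training t1 to t5 and validation v1 to v8), with the range (band) and median (line) of the 28 control arrays. All 13 points lie below the control range for the proteasome, 9 do for class II and 8 for T cells, while neutrophil points lie on both sides of it.

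Genes that make and dispose of protein were lower in large numbers. Cytosolic ribosomal protein genes fell in 35 of 42 and rose in 1 (median −0.52). Rplp0, of the ribosomal stalk, was 11.1 to 11.6 (median 11.4) on early-numbered and 12.2 to 13.1 (median 12.8) on control arrays, a difference of −1.36 ± 0.0685, and Rpl19 and Rpl6 fell, with differences of −1.58 ± 0.0833 and −1.26 ± 0.0685. These 3 had no overlap with the controls and were called lower in all 4 fits. Many ribosomal protein genes have processed copies that a probe set may also read. Mitochondrial ribosomal protein genes fell in 63 of 76 and rose in 3 (median −0.77), with Mrpl2 at 5.78 to 6.97 (median 6.65) on early-numbered and 7.57 to 8.35 (median 8.04) on control arrays, Mrps18b lower at −1.40 ± 0.116 and Mrpl28 at −1.12 ± 0.0966. Ribosome biogenesis genes fell in 23 of 29 and rose in 1 (median −0.67), Nop10 of the pseudouridylation complex at −1.37 ± 0.099, the RNA methyltransferase Fbl at −0.80 ± 0.0964 and Ppan at −0.85 ± 0.107. Proteasome subunits fell in 29 of 39 and rose in 3 (median −0.43). The catalytic subunit Psmb6 fell by 1.32 ± 0.104, and the mean of the list was below the lowest control on 13 of 13 arrays, at 8.5 to 9.25 against 9.28 to 9.8. These 4 lists kept negative medians with each covariate, from −0.62 to −0.12 for cytosolic and −0.62 to −0.13 for mitochondrial ribosomal proteins, −0.75 to −0.14 for biogenesis and −0.41 to −0.09 for the proteasome. Their counts of lower genes shrank to 23, 28, 10 and 11 with the actin covariate and to 9, 12, 5 and 10 with the control components. Higher genes numbered 0 in each list with the actin covariate, and 2, 6, 2 and 6 with the control components.

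Respiratory chain genes fell in 45 of 81 and rose in 14 (median −0.26). Of the 81, 76 lie above the median level, where 47% of all genes were lower and 17.9% higher, so the counts are near those shares. With the actin covariate 24 fell and 4 rose, with the 18S level 24 and 11 and with the control components 18 and 9. The ATP synthase subunits Atp5d and Atp5g1 fell, with differences of −1.29 ± 0.0749 and −1.67 ± 0.112 and the cytochrome oxidase subunit Cox6b1 at −1.30 ± 0.0825, each on 13 of 13 arrays below the lowest control and each called lower in all 4 fits. Glycolytic genes fell in 6 of 14 and rose in 1, near the 47% lower among all genes above the median level, where all 14 lie. Aldolase A (Aldoa) was 11.1 to 12.3 (median 11.5) on early-numbered and 12.4 to 12.8 (median 12.6) on control arrays, and Tpi1 and the pyruvate kinase gene Pkm fell, with differences of −0.94 ± 0.1 and −0.48 ± 0.0701. In the pentose phosphate pathway Pgd, of its oxidative branch, rose by 0.59 ± 0.0689, while Taldo1 and Tkt of the non-oxidative branch fell, with differences of −0.73 ± 0.0662 and −0.75 ± 0.113. Of the hypoxia genes 3 rose and 3 fell of 13, with Pdk1 lower at −0.58 ± 0.122, Ndrg1 at −0.34 ± 0.0801 and Higd1a higher by 0.36 ± 0.123, and without training 5 and validation 6, 0 rose and 5 fell. Lysosomal genes fell in 12 of 18 and rose in 0 (median −0.33), among them the cholesterol carrier Npc2 at −0.99 ± 0.0651, the hexosaminidase chain Hexa at −0.82 ± 0.0844 and cathepsin D (Ctsd) at −0.74 ± 0.0786, all 3 called lower in all 4 fits. Genes of the endoplasmic reticulum fell in 12 of 17 and rose in 3 (median −0.50). The translocon subunit Sec61a1 was 9.69 to 10.7 (median 10.2) on early-numbered and 10.7 to 11.4 (median 11.1) on control arrays, the stress factor Ddit3 was lower at −1.07 ± 0.123 and the disulfide isomerase Pdia4 at −1.41 ± 0.186, though 1 other Pdia4 probe set was called higher.

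Heat shock chaperones rose in 4 and fell in 5 of 13, and members of the family went opposite ways. The inducible Hspa1b was 8.44 to 11 (median 9.81) on early-numbered and 6.53 to 9.06 (median 7.81) on control arrays, a rise of 1.95 ± 0.203 with 11 arrays above every control and both other probe sets called higher. The constitutive Hspa8 was 11.6 to 12.6 (median 12.2) on early-numbered and 12.6 to 13 (median 12.8) on control arrays, a difference of −0.61 ± 0.0591, and the mitochondrial co-chaperone Hspe1 fell by 0.87 ± 0.1. Hspa1b has a near-identical neighbour, Hspa1a, whose probe set averaged 2.74 ± 0.428 (SD, n = 13) on early-numbered and 2.26 ± 0.282 (SD, n = 28) on control arrays. Hspa1b was 1.47 with the control components (adjusted p = 0.0252), and Hspa8 was called lower in all 4 fits. Heat shock factor binds repeats of the letters GAA and their inverse TTC. The 150 bases before the start are given for the riser Hspa1b (chr17:34959239-34959388, minus strand) and the faller Hspe1 (chr1:55087998-55088147, plus strand), from RefSeq, build GRCm38.p6, 5′ to 3′ on the gene's strand, with GAANNTTC in capitals.
Hspa1b: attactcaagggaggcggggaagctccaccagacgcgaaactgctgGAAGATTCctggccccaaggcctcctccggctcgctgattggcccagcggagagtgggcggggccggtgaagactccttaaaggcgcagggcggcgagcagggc
Hspe1: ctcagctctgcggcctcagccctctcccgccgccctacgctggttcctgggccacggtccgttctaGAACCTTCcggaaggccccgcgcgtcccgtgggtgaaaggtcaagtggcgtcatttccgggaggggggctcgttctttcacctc
This motif, which reads the same on both strands, was in 3.95% of all windows of 150 bases and in 4 of the 6 heat shock genes with a promoter entry, these 2 included. The windows of Hsph1 and Dnajb1 did not hold it. The 4 genes with the motif do not give 4 separate sites. Hspe1 and Hspd1 share the same bases, read from opposite strands. Hspa1a and Hspa1b hold the motif at the same place in near-identical windows. The count of 4 therefore cannot be set against the share of all windows as 4 separate cases. The motif was thus present before a gene that rose and before another that fell.

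Signalling lists had smaller medians and members on both sides. All genes of the interferon-stimulated, NF-kappaB, MAP kinase and TGF-beta lists lie above the median level, as do 16 of 17 JAK-STAT genes. Above that level 47% of all genes were lower and 17.9% higher. Interferon-stimulated genes fell in 11 of 21 and rose in 2 (median −0.35). Irf7, which amplifies type I interferon, was 5.73 to 7.29 (median 6.76) on early-numbered and 7.24 to 8.72 (median 7.79) on control arrays, Usp18 fell by 0.83 ± 0.188, and the RNA sensor Ifih1 rose by 0.70 ± 0.15. With the actin, 18S and control component covariates 1, 2 and 1 of the 21 were called lower, and the median was 0.26 with the control components. Immediate early genes rose in 7 and fell in 7 of 23. Egr2 was 6.58 to 8.59 (median 7.68) on early-numbered and 4.74 to 6.83 (median 6.27) on control arrays, a rise of 1.52 ± 0.166, Jund rose by 0.46 ± 0.0588, and the antiproliferative gene Btg2 fell by 0.75 ± 0.0906. Without training 5 and validation 6 the same list had 4 higher and 12 lower, and with the control components 6 higher and 1 lower. In the NF-kappaB list the inhibitors went apart, with Nfkbia higher by 0.63 ± 0.0712 and Nfkbie lower at −1.24 ± 0.109. The subunit Relb fell by 0.69 ± 0.108, and 3 rose and 5 fell of 13, but 3 and 1 with the control components. Of the JAK-STAT genes 3 rose and 8 fell of 17 (median −0.24), near the shares of all genes above the median level. With the actin covariate 1 and 2 were called (−0.31), with the 18S level 4 and 4 (0.12) and with the control components 5 and 1 (0.21). Jak2, which serves cytokine receptors of blood formation, was 11.8 to 12.6 (median 12.3) on early-numbered and 11.3 to 11.8 (median 11.6) on control arrays, and was called higher in all 4 fits. The interleukin 6 receptor Il6ra rose by 0.72 ± 0.0843 and Tyk2 fell by 0.64 ± 0.0885, with another probe set of each called in the opposite direction. Of the TGF-beta genes 4 rose and 8 fell of 14 (median −0.30), and with covariates 1 and 0 (actin, −0.12), 4 and 2 (18S, 0.05) and 3 and 1 (control components, 0.16). Called in the fit without them were the receptor Tgfbr1 higher by 0.69 ± 0.0754, the pathway inhibitor Skil by 0.52 ± 0.0661 and the repressor Tgif1 lower at −1.37 ± 0.165. The MAP kinase list split 4 and 4 of 15, with the stress kinase Map3k5 higher by 0.52 ± 0.0518, Map2k2 lower at −0.68 ± 0.129 and Mapkapk2 at −0.49 ± 0.12. Suppressive and checkpoint genes rose in 5 and fell in 3 of 15. Only 8 of the 15 lie above the median level, and at or below it 55.6% of all genes were higher. With the actin covariate 0 rose and 0 fell, with the 18S level 4 and 0 and with the control components 3 and 2. The smallest p-values of this list were those of Pdcd1lg2 (PD-L2), lower at −1.31 ± 0.209, the ectonucleotidase Nt5e (CD73), lower at −0.78 ± 0.172, and Il10, higher by 0.42 ± 0.102 at a level of 2.71 ± 0.378 (SD, n = 13) on early-numbered and 2.30 ± 0.273 (SD, n = 28) on control arrays. For Nfkbia, Skil, Tgfbr1 and Nt5e, as for Higd1a above, 1 other probe set was called in the opposite direction. BCL2 family genes fell in 4 of 12 and rose in 0, where 29% of all genes and 47% of those above the median level (10 of the 12 lie there) were lower, with Bid lower at −0.73 ± 0.0937, Bbc3 (PUMA) at −0.63 ± 0.133 and Bcl2 at −0.50 ± 0.126.

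**Figure D4:**
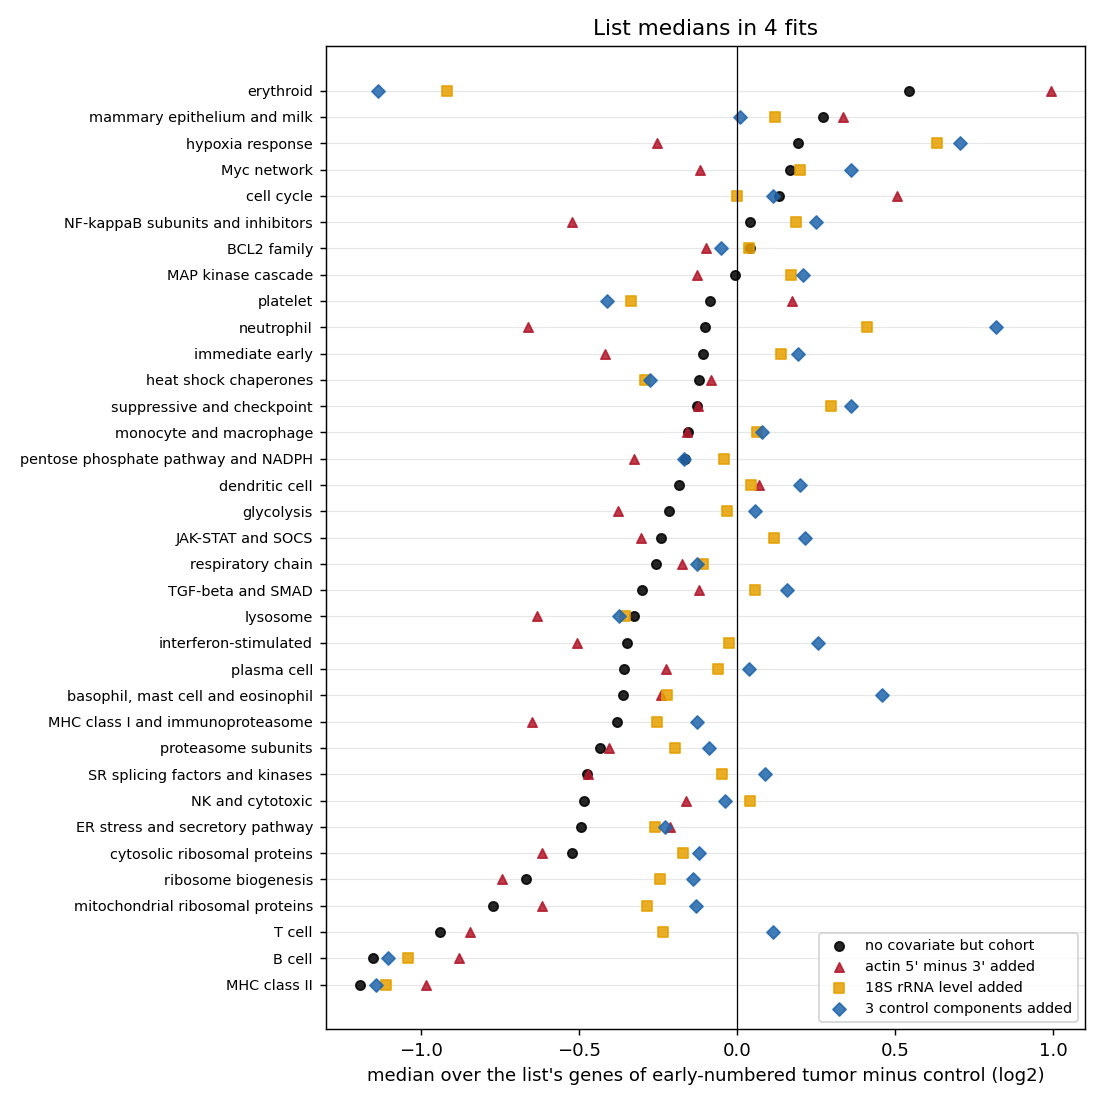
Median over each list's genes of early-numbered tumor minus control in log2 units, with cohort as the only covariate (black circles) and with the actin difference (red triangles), the 18S level (orange squares) or 3 control components (blue diamonds) added. The class II and B-cell lists stay between −1.19 and −0.88 in all 4 fits, while the erythroid list runs from −1.14 to 0.99.

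Myc was read by 1 probe set, and the sources used here do not say how it reads the transgene. Its level was 4.46 to 7.76 (median 6.47) on early-numbered and 6.59 to 9.06 (median 7.86) on control arrays. It averaged 6.49 ± 1.06 (SD, n = 13) on early-numbered and 7.81 ± 0.548 (SD, n = 28) on control arrays, a difference of −1.28 ± 0.234 with an adjusted p of 1.14e-05 in limma, and 7 arrays were below the lowest control. The fall was −1.26 in training and −1.30 in validation. It lost its call with the actin covariate (−1.26, adjusted p = 0.154), and stood at 0.07 with the 18S level (0.9) and 0.65 with the control components (0.242). Of its network 6 genes rose and 3 fell of 11. The MAX-binding repressors went apart, with Mxi1 higher by 0.49 ± 0.0492 and Mxd4 lower at −0.91 ± 0.1, and the repressor Mga rose by 0.50 ± 0.0776, though another probe set of Mxi1 and of Mga was called lower. Mxd4 was called lower in all 4 fits.

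Cell cycle genes rose in 12 and fell in 8 of 32. The helicase subunits of replication went apart: Mcm4 was 9.93 to 11 (median 10.6) on early-numbered and 9.2 to 10.1 (median 9.59) on control arrays, a rise of 1.03 ± 0.0789 and called higher in all 4 fits, while Mcm7 was 6.35 to 8.91 (median 8.17) on early-numbered and 8.69 to 9.84 (median 9.53) on control arrays, a difference of −1.44 ± 0.151. With the control components Mcm7 was −0.37 (adjusted p = 0.414), so it was not called there. The other Mcm4 probe set was called higher and the 3 other Mcm7 probe sets lower. The median was 0.61 in training, with 16 genes called higher, and −0.05 in validation, with 6, and training 2 had the highest mean at 7.71. The difference between cohorts in a list was not tested. SR splicing factors and their kinases fell in 14 of 21 and rose in 1 (median −0.48), but in 6 and 3 with the 18S level (−0.05) and in 2 and 5 with the control components (0.09). Called in the fit without them were the kinase Clk3 lower at −0.79 ± 0.089 and the coactivator Srrm1 at −0.64 ± 0.0739, though 4 of its 6 other probe sets were called higher.

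The early-numbered arrays also spread more among themselves. The SD over early-numbered arrays exceeded that over control arrays for 17044 genes (93.7%), with medians of 0.47 and 0.26, and pairs of early-numbered arrays correlated at 0.915 to 0.976 (Pearson r across probe sets), pairs of control arrays at 0.960 to 0.995. The 6 genes above the median level that varied most among early-numbered arrays are given next, among them several acute-phase genes. Saa3, an acute-phase protein gene, was 3.08 to 12.9 (median 8.5) on early-numbered and 3.55 to 11.6 (median 6.07) on control arrays. The endothelial lipase gene Lipg was 3.15 to 11.8 (median 5.15) on early-numbered and 2.91 to 10.4 (median 3.38) on control arrays, Stfa3, a protease inhibitor, 3.5 to 10.7 (median 7.42) on early-numbered and 3.87 to 9.99 (median 6.79) on control arrays, and the chemokine-like Prok2 4.88 to 12.2 (median 9.34) on early-numbered and 3.97 to 12.3 (median 8.28) on control arrays. Orm1, an acute-phase gene of the liver, was 2.75 to 10.5 (median 5.31) on early-numbered and 3.03 to 8.66 (median 5.33) on control arrays, and Ambp, also known from the liver, 3.44 to 9.01 (median 7.13) on early-numbered and 4.26 to 7.76 (median 5.79) on control arrays. In all 6 the groups overlapped, and none passed the test, with adjusted p from 0.0607 (Lipg) to 0.735 (Stfa3). With covariates Orm1 and Ambp were called higher, Orm1 at 3.53 (adjusted p = 0.0177) with the control components and 2.37 (0.0284) with the 18S level, and Ambp at 2.84 (0.0229) and 2.25 (0.0138). Both were negative and not called with the actin covariate, at −1.26 and −0.64.

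The late-numbered tumor arrays share the controls with this comparison, so their own values are set beside it and the difference between the tumor sets is given directly. As the sets were divided by a measured control probe set, it is a description. The actin difference averaged −1.42 ± 0.227 on early-numbered and −0.538 ± 0.282 (SD) on late-numbered arrays. The 18S level averaged 9.52 ± 0.781 on early-numbered and 8.66 ± 0.735 (SD) on late-numbered arrays. No technical covariate was fitted between the tumor sets, so differences in the blood and in RNA handling cannot be told apart here. Limma called 30619 of 45037 probe sets (68%) between them, 18479 higher and 12140 lower on early-numbered arrays, and 12742 of 18193 genes (70%), 39.3% higher and 30.8% lower. In several genes with the largest differences the tumor sets lay on opposite sides of the controls. Gnb2, a G-protein subunit, averaged 7.10 ± 0.455 on early-numbered, 9.78 ± 0.396 on late-numbered and 8.16 ± 0.299 (SD) on control arrays. The phosphatase subunit Ppp4c averaged 6.20 ± 0.735 on early-numbered, 8.95 ± 0.391 on late-numbered and 7.88 ± 0.199 (SD) on control arrays. Mpst averaged 4.73 ± 0.42 on early-numbered, 7.92 ± 0.664 on late-numbered and 6.94 ± 0.389 (SD) on control arrays. St3gal4, a sialyltransferase gene, and Stn1, of the telomere-binding CST complex, were lower than on late-numbered arrays by 2.69 ± 0.225 and 2.61 ± 0.148, and Ly6g6c by 2.79 ± 0.267. In the other direction Fam160b2 averaged 11.3 ± 0.358 on early-numbered, 9.04 ± 0.494 on late-numbered and 10.8 ± 0.365 (SD) on control arrays. The RNA helicase gene Dhx9 averaged 11.1 ± 0.16 on early-numbered, 9.20 ± 0.242 on late-numbered and 10.9 ± 0.126 (SD) on control arrays, and another of its probe sets was called lower than in the controls. Bmp2, AA386476, the calcium pump gene Atp2b4 and Ces2g were higher than on late-numbered arrays by 2.12 ± 0.295, 2.05 ± 0.198, 2.0 ± 0.193 and 1.98 ± 0.325.

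**Figure D5:**
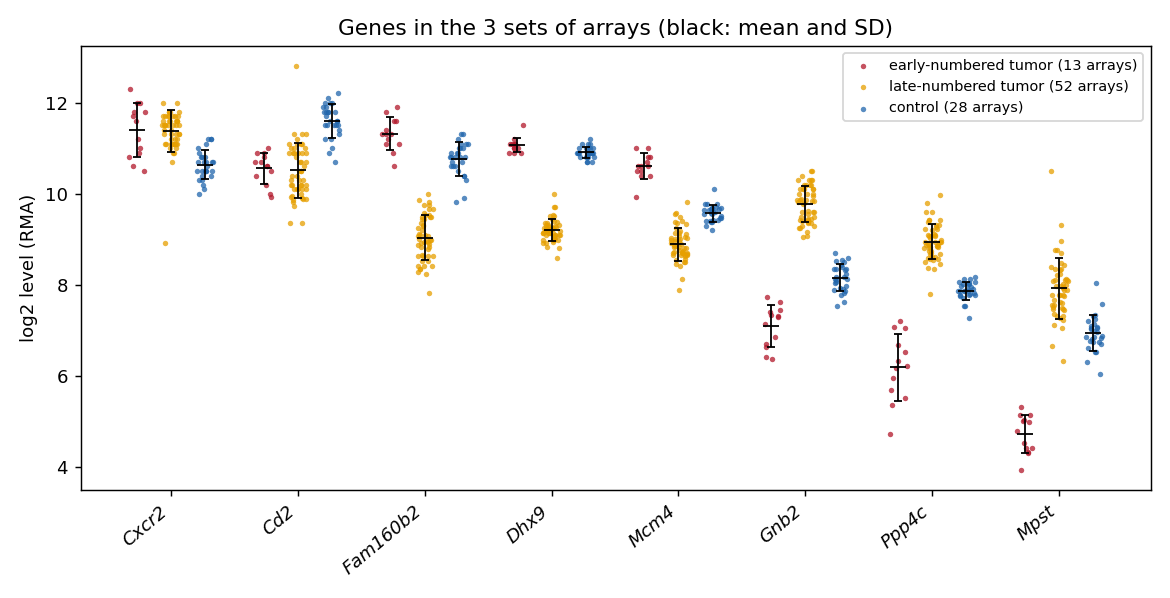
Log2 level of 8 genes on the 13 early-numbered tumor arrays (red), 52 late-numbered tumor arrays (orange) and 28 control arrays (blue), with mean and SD in black. Gnb2, Ppp4c and Mpst are lowest on early-numbered arrays and highest on late-numbered ones, while Cxcr2 and Cd2 have like means on both tumor sets.

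Other genes had close means on both tumor sets, and 4 of them are given, chosen after their values were seen. Early-numbered minus late-numbered was 0.02 ± 0.335 for Entpd3, 0.01 ± 0.135 for Cxcr2, 0.05 ± 0.156 for Cd2 and −0.01 ± 0.212 for Mzb1, and each of the 4 was called against the controls. At the level of lists the early-numbered and late-numbered medians against control were −1.15 and −1.06 for B cells, −1.19 and −0.61 for class II, −0.94 and −0.46 for T cells, −0.10 and 0.76 for neutrophils, −0.77 and 0.17 for mitochondrial ribosomal proteins, −0.33 and 0.43 for the lysosome and −0.50 and 0.32 for the endoplasmic reticulum. Of the 76 mitochondrial ribosomal protein genes 65 were lower and 4 higher on early-numbered than on late-numbered arrays, where 30.8% of all genes were lower. All 76 lie above the median level, and the share for that level alone was not computed between the tumor sets. Of the 19 neutrophil genes 11 were lower and 0 higher.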

How the data were processed

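Total RNA of blood leukocytes was measured on a genome-wide Affymetrix mouse array. The deposited table holds the authors' log2 values from RMA, in a version not given in the sources used here. Their methods include a standardization by components of the control probes. It is not stated whether the table was written before or after it. Values carry at most 3 significant digits. Array values have no read depth, so the number of arrays limits the precision.

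Of 45101 probe sets, 64 controls were left out and 45037 tested, of which 34945 have 1 gene symbol, 932 several and 9160 none in the platform annotation. By Entrez number 34741 matched RefSeq and 0 symbols changed. A gene was read by its single-symbol probe set with the highest mean over the 41 arrays (18193 genes). Limma 3.58.1 (R 4.3.3) fitted group and cohort with lmFit and eBayes (trend = TRUE), two-sided, with Benjamini-Hochberg adjustment over all 45037 probe sets and a threshold of 0.05. All p-values and adjusted p-values in the text are from limma. On simulated data with 200 changed probe sets, this fit recovered 79% of changes of 1 and 99% of changes of 2 log2 units, with 13 false calls. The simulation drew independent noise with the same SD in both groups. It therefore cannot show how the fit does here, where most probe sets were called and the early-numbered arrays spread more. The fit pools the spread of both groups, so with the larger spread in the smaller group the SEs may be too small, which was not tested.

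The members and gene lists were chosen with earlier results of these data known. Named were the 12 largest rises and falls above the median level with the same sign in both cohorts, the 3 smallest p-values of each list, the 6 largest differences each way between tumor sets, the 6 most variable genes, Myc and the sex check genes. The class II list is given in full, and other genes outside this rule were named after their values were seen. Some listed genes could not be read from a probe set with a single symbol and are not reported here. Alternatives were other arrays, scalings, filters and weights, each cohort alone, technical covariates and leaving out each early-numbered array. The 18S covariate and the fit without training 5 and validation 6 were chosen after seeing the data. Promoters are from RefSeq, build GRCm38.p6.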

Additional observations from a re-analysis of the deposited data

Results flagged for a closer look

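Within each cohort, early-numbered arrays were searched for a single array far from the rest, over 358 sets of values (named genes and list means). In 31 sets (8.66%) 1 array stood apart, where chance gives about 1 in 20. In training, array 4 was the lowest for H2-D1 (12.1), Ifih1 (7.31), Mcm4 (9.93) and Tgif1 (4.45), and for the means of the interferon-stimulated (7.735), JAK-STAT (8.746) and TGF-beta (8.964) lists. Training 1 was the lowest for Tpi1 (9.41) and the BCL2 family mean (7.835). Validation 2 was the lowest for Grap (4.06), Nprl2 (4.73), Mrps18b (6.12), Mcm7 (6.35), Bbc3 (3.38) and the means of SR factors (9.383) and MAP kinases (9.401). It was the highest for the Y-linked Eif2s3y (5.06), Kdm5d (4.39) and Uty (4.32). Validation 6 was the lowest for Cd180 (5.72), Osbpl1a (4.13), Hemgn (5.99), Hacd1 (7.94), Lyz2 (12.5), Epb42 (3.4), Mxi1 (12.6) and the erythroid mean (7.211), and the highest for Mcm4 (11). Validation 7 was the lowest for Cst7 (6.96), validation 5 the highest for Aldoa (12.3) and validation 3 for the mean of mammary and milk genes (4.258).

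The early-numbered minus control difference depended on cohort for 6 probe sets by the interaction term. Validation minus training was −0.88 for 4933402J15Rik, −1.31 for a probe set without a gene symbol, −1.07 for Gabrg3, −1.01 for Olfr78, −1.41 for Zfp606 and −1.01 for Rims3. Their adjusted p-values in limma ran from 0.00127 (Gabrg3) to 0.0377.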

How the results depend on the processing

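Leaving out each early-numbered array in turn gave 26247 to 27937 calls, 58.9 to 60.3 percent of them higher. The 27589 calls became 17989 in validation alone, 13938 with dim probe sets left out (29.04% higher, against 59.5%), 7124 with the actin covariate (44.8% higher), 8340 with the control components and 9803 with the 18S level. Calls between the tumor sets were 16201 without dim probe sets. The interaction had 12 calls without the intensity trend and 3 to 437 with 1 array left out. It had 437 without training 1, 26 without training 3, 70 without training 5, 3 without validation 1, 17 without validation 2 and 47 without validation 3. Named genes that were called had the opposite sign, early-numbered minus control, as follows, with Kdm5d, which was not called, among them. With the actin covariate AA386476 was −0.40, Dhx9 −0.11, Trem1 −0.11, Higd1a −0.17 and Mapkapk2 0.24, and Myc kept its sign at −1.26. With the control components Myc was 0.65, Hemgn −0.37, AA386476 −0.021, St3gal4 0.11, Eif2s3y −0.078, Kdm5d −0.79, Uty −0.45, Creld2 0.10, Lcn2 0.65, Mcpt8 0.91, Fcer1a 0.76, Tfrc −0.47, Epb42 −1.14, Gata1 −0.29, Usp18 0.40, Pdk1 0.30, Nt5e 0.67 and Bcl2 0.40. With the 18S level Myc was 0.074, Hemgn −0.39, Cst7 0.040, Lcn2 0.12, Tfrc −0.19, Epb42 −0.85, Gata1 −0.21, Nt5e 0.092 and Bcl2 0.15. With the mean over a gene's probe sets Xist was 0.19, Fkbp11 0.031, Srrm1 0.28, Tgfbr1 −0.012, Mxi1 −0.15 and Mga −0.075. The cause was not tested. Of genes not called, Orm1 (−1.26), Stfa3 (−1.90), Ambp (−0.64) and Prok2 (−0.11) also changed sign with the actin covariate and Kdm5d (−0.25) with the 18S level. Of the other values of named genes under these alternatives, 1922 stayed on their side of the threshold, 168 lost and 11 gained a call. Of 35 list medians, 16 changed sign with the control components, 10 with the 18S level and 6 with the actin covariate. Among them were those of the neutrophil (0.82 and 0.41 with the components and 18S), basophil (0.46, components), dendritic cell (0.20, components), erythroid (−1.14 and −0.92), suppressive (0.36 and 0.30), JAK-STAT (0.21 and 0.12), NF-kappaB (−0.52, actin), hypoxia (−0.25, actin) and Myc network (−0.12, actin) lists. Under another scaling the MAP kinase median changed sign (0.07 with arrays centred, 0.06 with quantile normalization).

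Labels in both groups carry replicate numbers. For same-numbered arrays r was −0.33 to 0.213 over 13 pairs, 5 over 0.1, and 2 best with their own number. This r is not the correlation of levels across probe sets given above, and its calculation is not described here. Same-numbered arrays were not taken as pairs in the main fit. These values cannot show that same-numbered arrays share nothing but a number. With the replicate block there were 21745 calls and Myc was −1.42.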
